A study of Mus musculus with 119 samples.

Results

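The levels of 10 neuropeptide precursor genes were followed in punches of 5 reward regions of the mouse brain. From the midbrain came the ventral tegmental area (VTA), from the striatum its dorsal medial part (DMS) and the nucleus accumbens (NAc), and from elsewhere the amygdala (Amy) and prefrontal cortex (PFC). The genes, taken as a fixed list of symbols, were Adcyap1, Cartpt, Tac1, Tac2, Crh, Nts, Cck, Gal, Trh and Grp, and all 10 were found among the 55291 genes of both deposited count tables. Female and male mice with no genetic change, C57BL/6J by the labels but C57BL/6NCrl by the study's methods, received 21 daily intraperitoneal injections of 10 mg/kg THC, or of a vehicle of ethanol, Tween and saline, from postnatal day 28 to 48. They were tested in behavioral tasks from postnatal day 63, and the labels give an age of 11 weeks. The 119 RNA-seq libraries fell into 20 groups by region, sex and treatment, with 6 libraries in each group and 5 in the VTA of vehicle-treated males. The labels do not say which libraries share a mouse, so that p-values measure the spread between libraries. The libraries titled DMS carry dorsolateral striatum as their tissue label.

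Neuropeptides are cut from larger precursor proteins in dense core vesicles and act on G protein-coupled receptors, often beside a fast transmitter released by the same neuron. Each precursor is made by restricted neuron types, so that its level in a punch depends on which neurons the punch holds. In the amygdala, striatum and midbrain these peptides are known for roles in stress, feeding, reward and fear.

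Sequencing depth, the summed expected counts of a library, ranged from 3090998 to 77042133, with region medians from 18632073 in the VTA to 23461892 in the PFC. Levels are given as CPM, read counts scaled to 1 common library total after TMM factors had adjusted for library composition. Markers of medium spiny neurons summed to 4381 to 7338 CPM in the DMS and of dopaminergic neurons to 1187 to 4123 CPM in the VTA, while the dopaminergic sum was at most 56.8 CPM in the Amy. In 2 Amy libraries the sex-linked genes went against the label: library FTL_344, labelled female THC, and library FTL_356, labelled male THC. Tests of THC and of sex in the Amy are therefore also given without them. In a bulk punch, fewer cells of a type and less RNA per cell cannot be told apart.

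Short stretches of the promoters are shown because Nts and Cartpt, the 2 members called with THC below, and most other members hold there the core of the cAMP response element (CRE), a site known to bind the CREB family. RefSeq promoters on GRCm38.p6, 250 bases before to 50 bases after the start, were searched for 8 of the 10 genes. Crh had no entry, and Grp was left out of the search. The CRE, TGACGTCA on either strand, was found in the promoter of 1 member, Cartpt, and in 1.79% of all 32851 promoters. Its core TGACG, or CGTCA when read on the other strand, was found in the promoters of 7 of the 8 members, that of Cartpt included, and in 20.81% of all promoters. The AP-1 motif TGACTCA, or TGAGTCA on the other strand, was found only in Nts among the 8 members and in 5.2% of all promoters. Tac2 held none of the 3 motifs, and in Gal the core lay after the start. Each stretch below is written 5′ to 3′ on the strand of the gene, with the motif in capitals.
Cartpt, CRE, 112 bases before the start, chr13:99900777-99900806, minus strand, in an exon of a longer GENCODE transcript: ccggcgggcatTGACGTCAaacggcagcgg
Nts, AP-1, 207 bases before the start, chr10:102490608-102490636, minus strand: aactctttctgTGAGTCAgaaatcctgag
Nts, CRE core, 166 bases before the start, chr10:102490568-102490596, minus strand: attagggaagatCGTCActttccatcaag
Cck, CRE core, 47 bases before the start, chr9:121495725-121495753, minus strand: cctgctggactgCGTCAgcactgggtaaa
Trh, CRE core, 96 bases before the start, chr6:92244730-92244758, minus strand: ccccggctctgcCGTCAgcgcccctgcat
Adcyap1, CRE core, 91 bases before the start, chr17:93198914-93198942, plus strand: ggactaggatgcTGACGtcttttactgat
Tac1, CRE core, 197 bases before the start, chr6:7554852-7554880, plus strand: tccctaaaattgCGTCAtttcgaacacaa
These letters were matched in the reference only, and binding was not measured.

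Each member had its own order of the regions by mean CPM, and 6 of the 10 had their highest mean in the Amy. Of these, Trh and Grp were not called between the Amy and the next region (adjusted p = 0.354 and 0.14 in vehicle libraries). The orders of Tac1 and Grp changed without TMM factors. Differences between regions were tested in the 59 vehicle libraries with edgeR's quasi-likelihood test, with sex as a covariate. The counts of the PFC and DMS were deposited apart from those of the NAc, Amy and VTA, where depth also ranged more widely. For a pair with a region from each deposit, a difference between regions cannot be told apart from a difference between deposits. The part of the deposit was not tested. A gene was called when its adjusted p over all genes tested was under 0.05 and its log2 fold change at least 0.4 in size. Members were called in 87 of 100 tests, 10 genes in each of 10 pairs of regions. This count has to be read against all 17476 genes tested, most of which also differed between regions in some pairs. All genes were called in 49.3% of cases for DMS against PFC, 45.2% for NAc against PFC, 37.4% for Amy against PFC and 55% for VTA against PFC. The share was 30.8% for NAc against DMS, 43% for Amy against DMS and 57.4% for VTA against DMS. It was 24.7% for Amy against NAc, 52% for VTA against NAc and 43.4% for VTA against Amy. The members called numbered 9, 9, 9 and 8 of 10 in the pairs with the PFC, 6, 9 and 10 in the further pairs with the DMS, 10 and 8 in those with the NAc, and 9 for VTA against Amy.

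**Figure D1:**
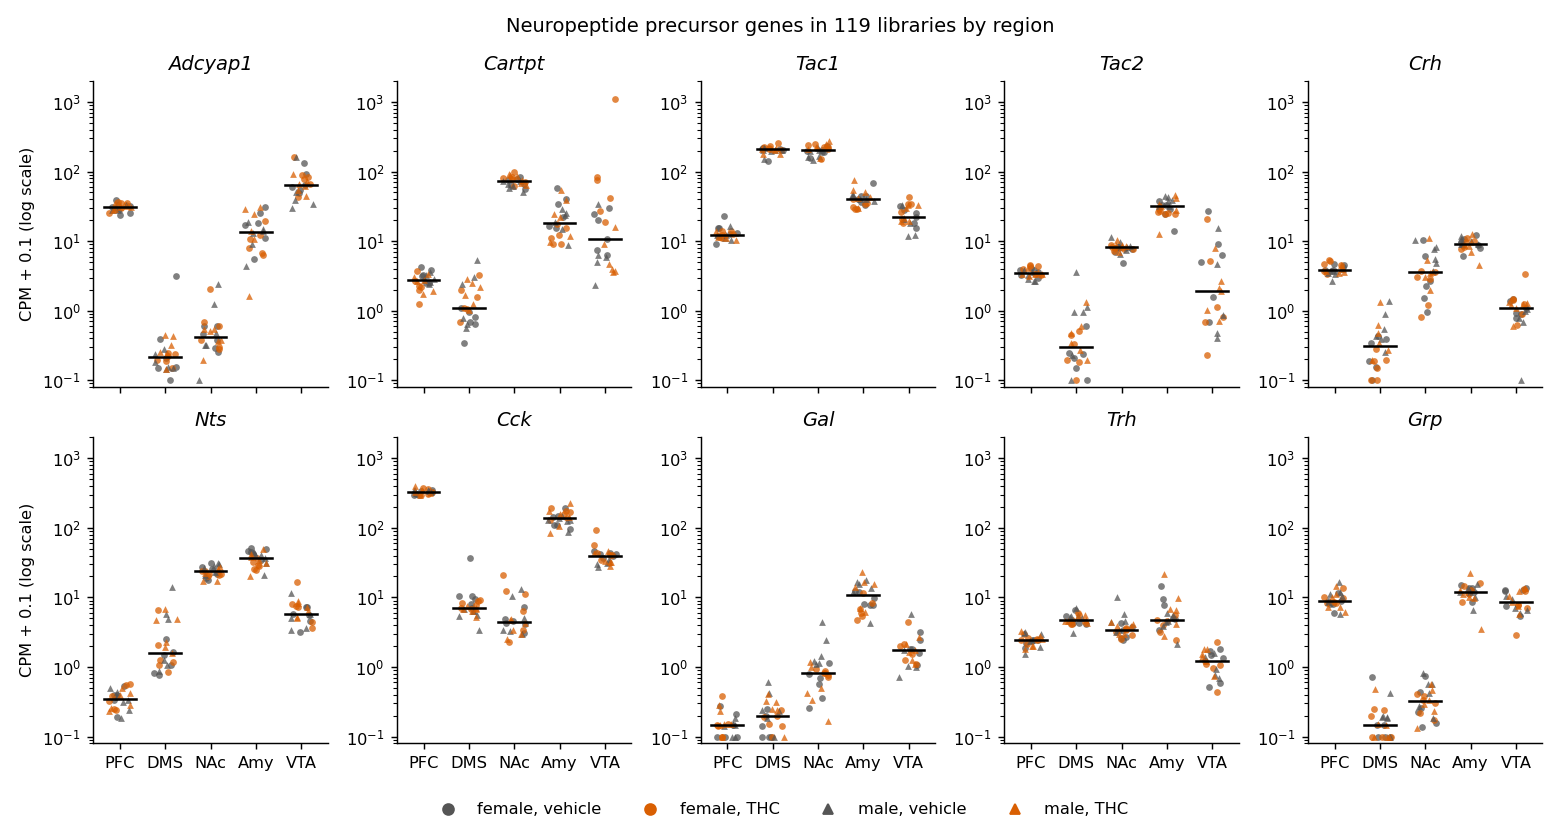
CPM plus 0.1 on a log axis for each of the 10 genes in all 119 libraries, by region, with the median of each region as a black bar. Tac1 sits near 200 CPM in DMS and NAc alike, Cck is highest in the PFC, and 1 VTA library holds 1091 CPM of Cartpt.

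The tachykinin genes differed most from each other in the striatum. Tac1 (chr6:7554879-7565834), the precursor of substance P and neurokinin A and a marker of striatal neurons of the direct pathway, was highest in the striatum. It ranged from 142.6 to 256.1 CPM with a median of 208.2 in the 24 DMS libraries, and from 148.9 to 274.5 with a median of 206.4 in the 24 NAc libraries. The DMS and NAc overlapped fully, their log2 difference was -0.08 ± 0.12 (SE, adjusted p = 0.551), and without TMM scaling their means changed places. Tac1 medians were 40.4 CPM in the Amy, 21.98 in the VTA and 12.1 in the PFC, and every one of these regions lay below every striatal library. Tac2 (chr10:127724478-127731768), the precursor of neurokinin B, was highest in the Amy, at 12.5 to 46.6 CPM with a median of 31.7. No Amy library overlapped with the NAc, where Tac2 ranged from 4.81 to 11.3 CPM, and the log2 difference was 2.04 ± 0.36 (SE, adjusted p = 2.538e-06). In the DMS Tac2 had a median of 4.5 counts per library and 3 libraries at 0, so differences there rest on few reads.

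Among the peptides of stress and feeding, Crh (chr3:19693401-19695396), the precursor of corticotropin-releasing hormone, had a median of 8.98 CPM in the Amy, with a range of 4.38 to 12.7. Its medians were 3.72 CPM in the PFC and 3.50 in the NAc, which did not pass the test against each other (log2 difference 0.46 ± 0.24 SE, adjusted p = 0.0825). Within the PFC the libraries kept to 2.61 to 5.22 CPM, whereas the NAc libraries spread from 0.708 to 11.1 CPM. The 4 NAc libraries above 8 CPM of Crh had summed markers of hypothalamus and medial amygdala of 59.5 to 71.3 CPM, and the other 20 had 24.5 to 60.1. Their part in this spread was not tested. Crh was lowest in the DMS, with 3 libraries at 0.

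Cartpt (chr13:99898489-99901091), the precursor of the CART peptides that act in feeding and reward, had medians of 73.5 CPM in the NAc, then 18.1 in the Amy, 10.5 in the VTA, 2.62 in the PFC and 0.988 in the DMS. The NAc libraries kept to 50.5 to 96.9 CPM, all above the PFC and DMS. In the VTA the mean of 66.5 CPM rested on 1 library. Without it the mean of the other 22 was 19.95 CPM, below the Amy mean of 22.5. In vehicle libraries the VTA was lower than the Amy by 1.06 ± 0.30 on the log2 scale (SE, adjusted p = 0.00133). With the 60 THC libraries in place of the vehicle libraries the difference turned, to 2.25 higher in the VTA (adjusted p = 0.00178), with library FTL_363 at 1091 CPM among them.

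Adcyap1 (chr17:93199017-93206537), which encodes the peptide PACAP, was highest in the VTA, at 29.5 to 162.5 CPM with a median of 64.9. It followed at 23.6 to 38.6 CPM in the PFC and 1.54 to 30.9 CPM in the Amy. The VTA was higher than the PFC by 1.14 ± 0.27 on the log2 scale (SE, adjusted p = 0.000122). In the striatum Adcyap1 was near the limit of 3 counts, with medians of 2.5 counts in the DMS and 7 in the NAc. The NAc was not called against the DMS (log2 difference 0.34, adjusted p = 0.71), but it was without library FTL_285 (2.24, adjusted p = 0.0345).

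Gal (chr19:3409915-3414544), the galanin precursor, was highest in the Amy, with a median of 10.6 CPM against 1.65 in the VTA and 0.715 in the NAc. Amy libraries ranged from 4.201 to 22.8 CPM and overlapped only at their low end with the VTA, where the highest library was at 5.67 CPM. In the PFC and DMS Gal was at 0 in 8 and 6 of 24 libraries. Trh (chr6:92242061-92244650), the precursor of thyrotropin-releasing hormone, varied least between regions, with medians of 4.68 CPM in the Amy, also 4.68 in the DMS, then 3.34 for the NAc, 2.32 for the PFC and 1.14 for the VTA. The Amy was not called against the DMS (log2 difference 0.22 ± 0.21 SE, adjusted p = 0.354).

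Among the peptides shared by gut and brain, Cck (chr9:121489824-121495694), the cholecystokinin precursor made by many cortical projection neurons and interneurons, had a median of 324.8 CPM and a highest value of 401.9 in the PFC, where every library lay above all those of other regions. The Amy followed at 84.1 to 229.4 CPM, lower than the PFC by 1.37 on the log2 scale (adjusted p = 8.032e-09), and the VTA at 27.4 to 93.3. The striatal medians were 6.97 CPM in the DMS and 4.33 in the NAc. Cck above 10 CPM in the NAc was found in 5 libraries, whose summed markers of cortical and basolateral projection neurons were 57.7 to 140.1 CPM. The other 19 NAc libraries had 2.21 to 7.19 CPM of Cck and sums of 2.07 to 42.0. In the DMS, library FTL_285 alone had a cortical sum of 263.6 CPM, and it was also the highest in Cck at 36.9 CPM and in Adcyap1 at 3.09. The part of cortical tissue in these levels was not tested.

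Nts (chr10:102481756-102490486), the neurotensin precursor, had medians of 36.5 CPM in the Amy and 23.5 in the NAc. Its VTA median was 5.74 CPM, and in the PFC it was below 0.5 CPM in every library. Amy libraries ranged from 20.02 to 52.0 CPM and overlapped with the NAc range of 16.9 to 31.1, with a log2 difference of 0.67 ± 0.22 (SE, adjusted p = 0.00908). Grp, the precursor of gastrin-releasing peptide, had medians of 11.8 CPM in the Amy, 8.77 in the PFC and 8.43 in the VTA. No pair among these 3 regions was called, with adjusted p between 0.123 and 0.927. In the striatum Grp rested on few reads, with medians of 1 count per library in the DMS and 5 in the NAc.

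Members varied widely between libraries of 1 group. The SD of log2 CPM within the sex and treatment groups exceeded that of the median gene in all 40 pairs of a member and a region with a mean of at least 1 CPM, and it was at or above the 90th percentile in 24 of them. The comparison was with all genes of at least 1 CPM in the region, not with genes of like level. Low counts widen this SD, and some pairs were low, such as Crh in the VTA with a median of 20 counts. The part of level in the spread was not tested. Tac2 in the VTA had an SD of 1.98, Cartpt in the VTA 1.42, Nts in the DMS 1.12 and Adcyap1 in the Amy 1.04. Cck in the PFC was the most even, with an SD of 0.117 beside a median of 0.102 over all genes of that region. Members with a high level in a region were not always even there, as Adcyap1 in the VTA had an SD of 0.648.

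THC was compared with vehicle separately by region and sex, with 6 libraries in a group except in the VTA of vehicle-treated males. Of the 100 pairs of a member and a comparison, 83 passed the filter on low counts and 17 did not. Of these 83, 11 had an unadjusted p under 0.05 and 2 were called, both in the female Amy. There, 2 of 10 members were called where 1.57% of all 17003 genes tested were. In that comparison 3724 of the 17003 genes had an unadjusted p under 0.05. In the female DMS 0 of 5 members tested were called beside 0.0127% of all genes. In the other 8 comparisons edgeR called 0 members and 0% of all genes, with 5 members having an unadjusted p under 0.05, and DESeq2 called 0 members in these 8 comparisons and in the female DMS.

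**Figure D2:**
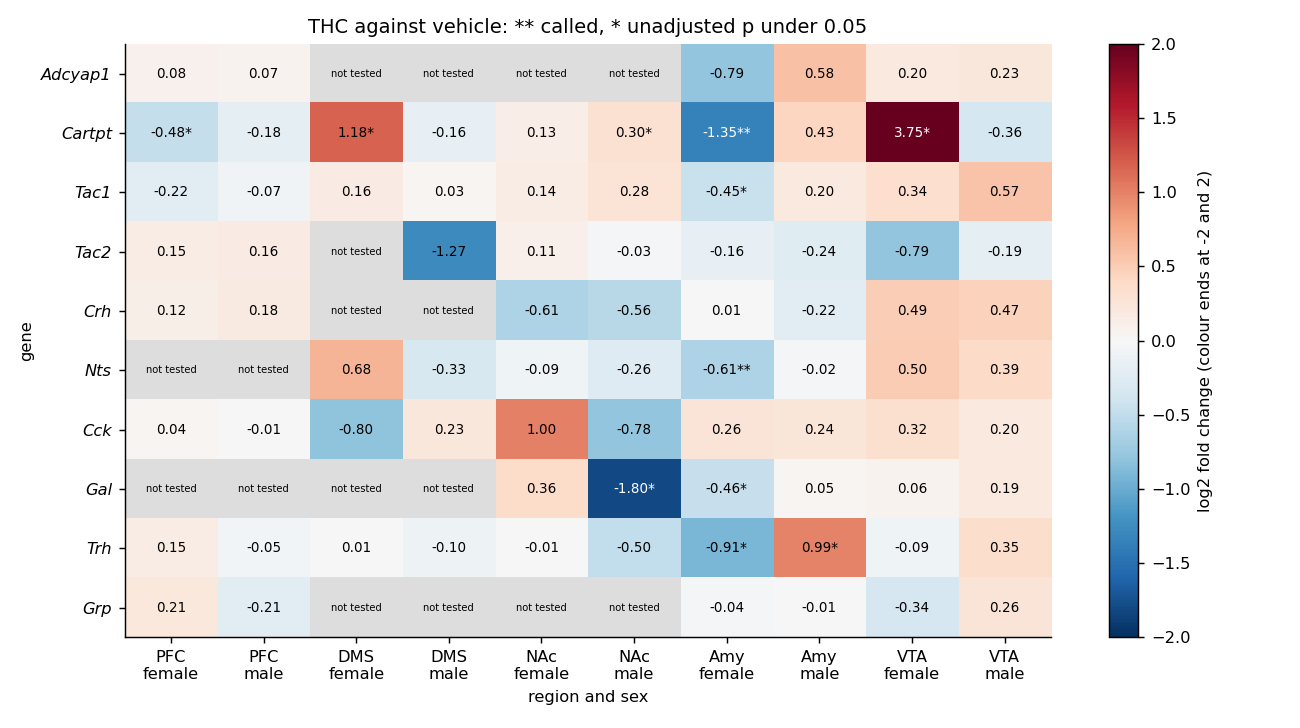
Log2 fold change of each member with THC, by region and sex, with 2 asterisks for calls and 1 for an unadjusted p under 0.05; gray cells did not pass the filter. Only Cartpt at -1.35 and Nts at -0.61 in the female Amy were called, and Cartpt in the female VTA at 3.75 is beyond the ends of the color scale.

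In the female Amy, Cartpt and Nts fell with THC. Nts ranged from 34.1 to 52.0 CPM with a median of 45.3 in vehicle libraries and from 24.6 to 36.2 with a median of 28.8 in THC libraries. Only 1 vehicle library, FTL_337, lay below the highest THC library. The log2 fold change was -0.61 ± 0.11 (SE, adjusted p = 0.0148), and Nts stayed called with each of the 12 libraries left out in turn (adjusted p from 0.0075 to 0.0474), among them library FTL_344 (log2 fold change -0.58, adjusted p = 0.0378). When 1 model held all 4 Amy groups the change was -0.61 and the adjusted p 0.075.

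Cartpt ranged from 15.1 to 57.8 CPM with a median of 28.2 in vehicle libraries and from 9.09 to 17.5 with a median of 11.7 in THC libraries. The groups overlapped between the lowest vehicle and the highest THC libraries. The log2 fold change was -1.35 ± 0.32 (SE, adjusted p = 0.0459). This call held without library FTL_334, FTL_336 or FTL_343 and was lost without each of the other 9, that is FTL_333, FTL_335, FTL_337, FTL_338, FTL_339, FTL_340, FTL_341, FTL_342 and FTL_344, with log2 fold changes from -1.50 to -1.07 and adjusted p of at most 0.12 over the 12. Without library FTL_344 the change was -1.42 and the adjusted p 0.0708. In the model of all 4 Amy groups the adjusted p was 0.0834, and with no filter 0.124.

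**Figure D3:**
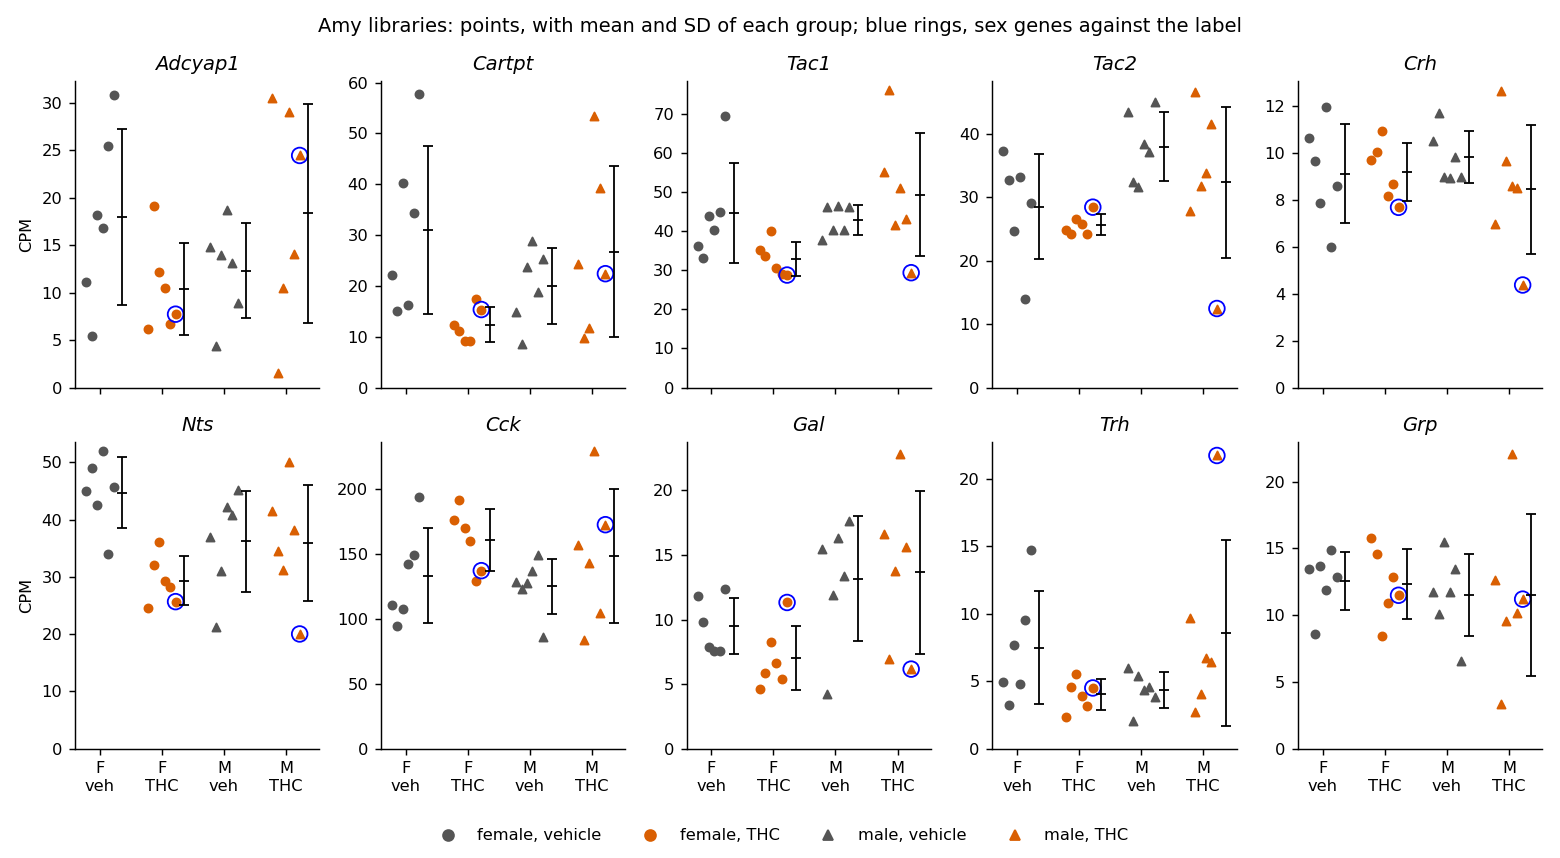
CPM of the 10 genes in the 24 Amy libraries by sex and treatment, with the mean and SD of each group beside its points and blue rings around libraries FTL_344 and FTL_356. In females Nts and Cartpt lie lower with THC, with some overlap between the groups, and in males the groups overlap for every gene. No member was called for an interaction of sex and treatment.

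A further 3 members had an unadjusted p under 0.05 in the female Amy without a call, where 3724 of all 17003 genes had such a p. Tac1 ranged from 33.2 to 69.3 CPM with vehicle, with a median of 42.1, and from 28.8 to 40.0 with THC, with a median of 32.1 (log2 fold change -0.45 ± 0.15 SE, adjusted p = 0.121). Gal ranged from 7.57 to 12.4 CPM with vehicle and 4.58 to 11.3 with THC, with medians of 8.84 and 6.27 (-0.46 ± 0.21 SE, adjusted p = 0.22). Trh ranged from 3.26 to 14.7 CPM with vehicle and 2.37 to 5.56 with THC, with medians of 6.31 and 4.21 (-0.91 ± 0.32 SE, adjusted p = 0.133), and DESeq2 called it (adjusted p = 0.0455). Without library FTL_344 the changes were -0.41 for Tac1, -0.64 for Gal and -0.94 for Trh (adjusted p = 0.223, 0.095 and 0.205). All 3 were lower in the median with THC, and all 3 overlapped between the groups. The median log2 fold change of the 10 members was -0.45, and that of all genes was -0.0057. The 5 members left had fold changes of -0.79 for Adcyap1, -0.16 for Tac2, -0.04 for Grp, 0.01 for Crh and 0.26 for Cck, none with an unadjusted p under 0.05.

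Markers of cortical and basolateral projection neurons and of hypothalamus and medial amygdala differed between treatments in the same libraries. Both lists name a part of the amygdala itself, so they do not separate its own nuclei from tissue beside it. The 6 markers of cortical and basolateral projection neurons summed to 505.1 to 745.3 CPM in vehicle libraries, with a median of 556, and to 794.3 to 1137 CPM in THC libraries, with a median of 1050, and the groups did not overlap. The 10 markers of hypothalamus and medial amygdala summed to 72.8 to 105 CPM in vehicle libraries, around 88.4, and to 43.0 to 63.7 CPM in THC libraries, around 58.4 as the median, again without overlap. Of these, Hmx2 and Hmx3 were at 0 in the vehicle libraries and Hmx2 in the THC libraries. Medium spiny neuron markers summed to 199.6 to 492.6 CPM with vehicle and 439.7 to 734.2 with THC. In the male Amy both lists overlapped between treatments. Medians were 707.4 and 672.8 CPM for the cortical and basolateral list, and 82.9 and 79.9 CPM for the list of hypothalamus and medial amygdala. The part of these markers in the results for Nts, Cartpt and the other members was not tested.

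**Figure D4:**
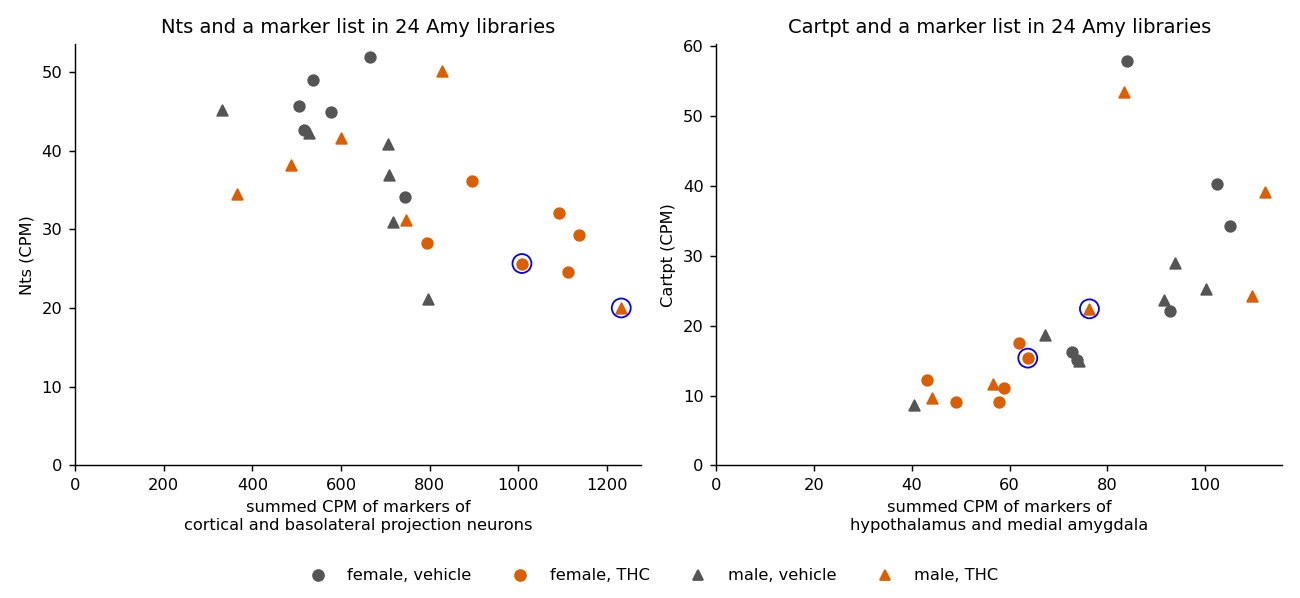
Nts against the summed CPM of cortical and basolateral markers (left) and Cartpt against that of hypothalamic and medial amygdala markers (right), 1 point for each of the 24 Amy libraries. All 6 female THC libraries lie at 794.3 CPM or more on the left and at 63.7 CPM or less on the right, and blue rings mark libraries FTL_344 and FTL_356.

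Markers of the choroid plexus, the tissue that makes cerebrospinal fluid, also differed between the female Amy libraries, though not by treatment alone. They exceeded 100 CPM in vehicle libraries FTL_335, FTL_337 and FTL_338 and in THC libraries FTL_343 and FTL_344, and were between 17.1 and 22.9 CPM in the other 7. Among vehicle libraries, the 3 high in these markers had 34.3 to 57.8 CPM of Cartpt, and the 3 low had 15.1 to 22.1. Trh was likewise at 7.69 to 14.7 CPM against 3.26 to 4.92, Adcyap1 at 18.2 to 30.9 against 5.45 to 16.8 and Tac1 at 43.8 to 69.3 against 33.2 to 40.4. The split ran the other way for Tac2, at 13.99 to 29.1 CPM against 32.8 to 37.2, and for Crh, at 5.99 to 8.59 against 9.66 to 11.97. Without the 5 libraries, Cartpt was at 15.1 to 22.1 CPM with vehicle (n = 3) and 9.09 to 12.3 with THC (n = 4), without overlap. Its log2 fold change was then -0.79 ± 0.15 (SE, adjusted p = 0.0163). Nts kept -0.66 (adjusted p = 0.0135). Tac2 at -0.45 (adjusted p = 0.00257) and Cck at 0.60 (adjusted p = 0.0408) were then called as well. Of all 18041 genes tested without these libraries, 223 were called higher and 129 lower with THC. The fold changes of Tac1 and Trh were then -0.06 and -0.05 (adjusted p = 0.784 and 0.947).

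In the male Amy, 0 of 10 members were called. Trh ranged from 2.07 to 5.95 CPM with vehicle and from 2.71 to 21.7 with THC (log2 fold change 0.99 ± 0.44 SE, adjusted p = 0.9999). The highest value came from library FTL_356, and without it the change was 0.45 (adjusted p = 0.998). Nts was at 21.2 to 45.2 CPM with vehicle and 20.02 to 50.1 with THC in males, and Cartpt at 8.61 to 28.9 and 9.66 to 53.4.

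Whether THC acted unequally in the sexes was tested as the interaction of sex and treatment in each region. No member was called in any region, and all genes were called in 0.0059% of tests in the Amy and in 0% in the other 4 regions. DESeq2 also called 0 members. Of all genes, 965 of 16451 had an unadjusted p under 0.05 in the PFC and 980 of 16605 in the DMS. The counts were 1845 of 16773 in the NAc, 2675 of 16956 in the Amy and 1040 of 16881 in the VTA. Of 43 tests on members, 8 had such a p. In the Amy these were Trh, with an interaction of 1.90 ± 0.58 on the log2 scale (SE, adjusted p = 0.235), Cartpt with 1.77 ± 0.56 (adjusted p = 0.251), Tac1 with 0.65 ± 0.25 (adjusted p = 0.257) and Nts with 0.60 ± 0.25 (adjusted p = 0.272). A positive value means a higher fold change in males. These values rest on the sex labels of libraries FTL_344 and FTL_356. Without both, they were 1.38 for Trh, 1.89 for Cartpt, 0.73 for Tac1 and 0.68 for Nts (adjusted p from 0.196 to 0.211), and no member was called. The other 4 were Cartpt in the VTA at -3.74 (adjusted p = 0.78), Cck in the DMS at 1.03 (adjusted p = 0.801), and Cck and Gal in the NAc at -1.79 and -2.18 (adjusted p = 0.39 and 0.384). Without library FTL_363 the interaction of Cartpt in the VTA was -1.65 (adjusted p = 0.989). Over both sexes, no member was called with THC, and all genes were called in 0% of tests in each of the 5 regions. DESeq2 called 0 members. An unadjusted p under 0.05 was found for 791 of 16451 genes in the PFC and 811 of 16605 in the DMS. The counts were 1711 of 16773 in the NAc, 1195 of 16956 in the Amy and 1687 of 16881 in the VTA. Such a p was found in 6 of 43 tests on members. These were Cartpt in the PFC, NAc and VTA (log2 fold changes -0.33, 0.22 and 2.30), Tac1 in the NAc and VTA (0.21 and 0.45) and Nts in the Amy (-0.32), with adjusted p from 0.403 to 0.992. Without library FTL_363 the VTA value of Cartpt was 0.85 (adjusted p = 0.629), and without libraries FTL_344 and FTL_356 the Amy value of Nts was -0.24 (adjusted p = 0.992).

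In the VTA the member with the widest range was Cartpt. Vehicle-treated females ranged from 6.24 to 30.2 CPM with a median of 15.3, and THC-treated females from 18.5 to 1091 with a median of 58.0. The groups overlapped, and the log2 fold change of 3.75 ± 1.16 (SE) had an adjusted p of 0.512. Without library FTL_363, which held the 1091 CPM from 20453 counts, the change was 1.56 ± 0.54 (adjusted p = 0.826). DESeq2 gave no p for this gene. Males ranged from 2.25 to 34.3 CPM with vehicle and 3.50 to 15.8 with THC.

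Library FTL_363 also stood apart in other genes. Ucn, the urocortin gene and no member of the list, was at 76.8 CPM in it, at 6.55, 3.95 and 2.28 CPM in THC-treated female libraries FTL_364, FTL_366 and FTL_367, and at most at 1.83 CPM in the other 19. The 4 libraries highest in Ucn were also the 4 highest in Cartpt, at 1091, 74.5, 84.4 and 41.4 CPM. Both peptides are known from neurons of the Edinger-Westphal nucleus, which lies in the midbrain near the VTA. Cck was likewise highest in library FTL_363, at 93.3 CPM beside 27.4 to 56.0 in the other 22 libraries, and its dopaminergic markers had the lowest sum of the VTA, 1187 CPM. The part of the position of the punch was not tested.

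A different set of VTA libraries was high in Tac2. The highest Tac2 value of each group was 27.3 CPM in library FTL_358, 20.5 in FTL_368, 15.2 in FTL_371 and 7.85 in FTL_376, and each of the 4 stood apart from its group. They were also the highest of their groups in Adcyap1, at 134.3, 162.5, 159.6 and 93.5 CPM. Their summed markers of dopaminergic neurons were 2738, 1634, 1472 and 2177 CPM, each the lowest of its group except in library FTL_368, where FTL_363 was lower. Library FTL_371 had the lowest depth of all. Neither gene had an unadjusted p under 0.05 with THC in the VTA of either sex.

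**Figure D5:**
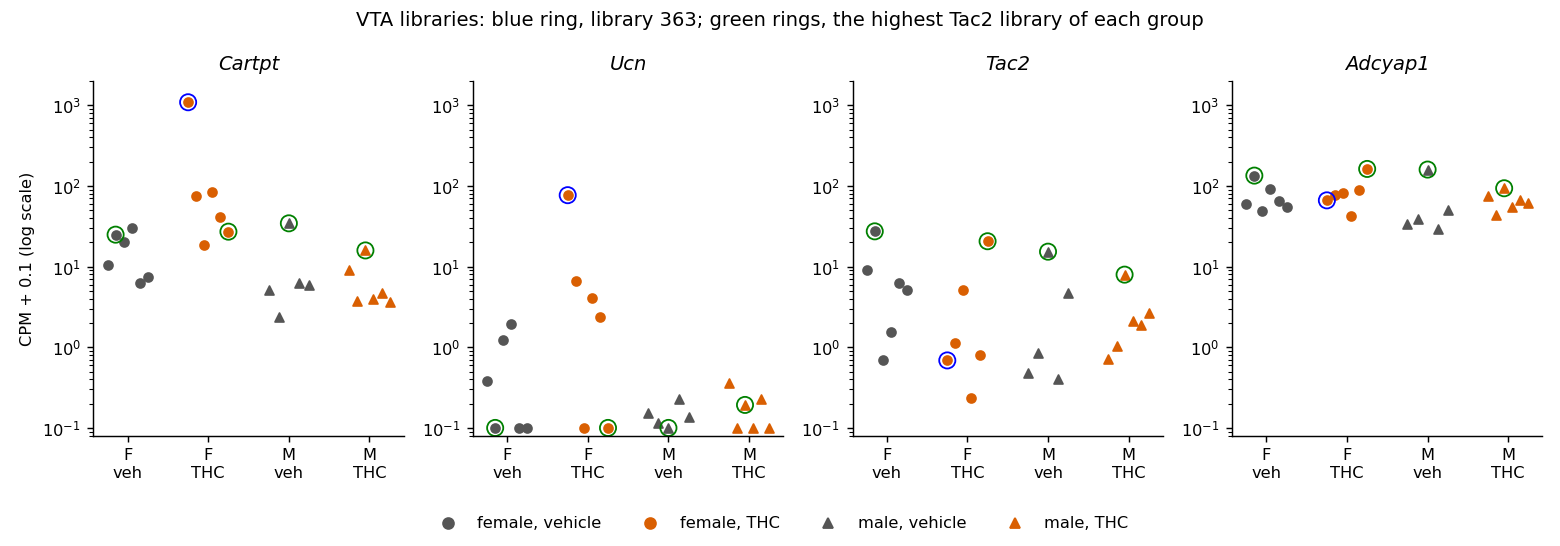
CPM plus 0.1 on a log axis for Cartpt, Ucn, Tac2 and Adcyap1 in the 23 VTA libraries by sex and treatment. The blue ring marks library FTL_363, highest in Cartpt at 1091 CPM and in Ucn at 76.8, and green rings mark the library highest in Tac2 in each group, which is also the highest in Adcyap1.

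In the striatum and PFC no member was called with THC. In the male NAc, Gal ranged from 1.02 to 4.37 CPM with vehicle and from 0.0659 to 1.10 with THC, a log2 fold change of -1.80 ± 0.54 (SE, adjusted p = 0.21), and 5.5 counts were the median with THC. Leaving out 1 library at a time kept it between -2.14 and -1.36, never called, and DESeq2 gave -1.865 without an adjusted p. Cartpt in the male NAc was at 50.5 to 73.6 CPM with vehicle and 64.4 to 91.7 with THC, a change of 0.30 ± 0.11 (SE, adjusted p = 0.216). In the same libraries the markers of hypothalamus and medial amygdala summed to 34.4 to 69.5 CPM with vehicle, around a median of 53.7, and to 24.5 to 59.5 with THC, around 35.6. Those of medium spiny neurons summed to 1774 to 2700 CPM with vehicle and 2417 to 3802 with THC, with medians of 2449 and 3081. Both lists overlapped between the groups, and their part in these values was not tested. In the female DMS Cartpt was at 0.244 to 0.989 CPM with vehicle and 0.597 to 3.19 with THC (1.18 ± 0.39 SE, adjusted p = 0.352), from medians of 13 and 27.5 counts. In the female PFC it was at 2.41 to 4.09 CPM with vehicle and 1.15 to 3.58 with THC (-0.48 ± 0.21 SE, adjusted p = 0.855). In each of these 4 cases the groups overlapped.

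Between the sexes, over both treatments, 2 members were called, both in the DMS, where 2.64% of all genes were called. Cck was lower in males, at 3.35 to 7.46 CPM beside 6.81 to 36.9 in females (log2 difference -0.78 ± 0.25 SE, adjusted p = 0.0472). Without library FTL_285, a vehicle-treated female, the difference was -0.45 (adjusted p = 0.00432). Without that library and library FTL_301, the male lowest in medium spiny neuron markers, it was -0.39 (adjusted p = 0.00229), under the fold threshold. Tac2 was higher in males by 1.95 ± 0.62 on the log2 scale (SE, adjusted p = 0.0442) and by 1.73 without both libraries (adjusted p = 0.0433), with group medians of 2.5 to 19 counts. DESeq2 called Crh and Nts in the DMS too, at 2.13 and 1.33 higher in males (adjusted p = 0.00129 and 0.0377). No member was called by sex with edgeR in the PFC, NAc, Amy or VTA, where 0.237%, 0.25%, 0.0118% and 0.113% of all genes were. Of all genes, 2686 of 16451 had an unadjusted p under 0.05 in the PFC and 2748 of 16773 in the NAc. The counts were 1027 of 16956 in the Amy and 1214 of 16881 in the VTA. Such a p was found in 9 tests on members in these regions. In the Amy these were Gal at 0.69 and Tac2 at 0.38 higher in males, and 0.82 and 0.47 without libraries FTL_344 and FTL_356 (adjusted p = 0.265 and 0.23). DESeq2 called Trh in the NAc, higher in males by 0.50 (adjusted p = 0.0445), and Cck in the VTA, at -0.48 (adjusted p = 0.0328). With edgeR, Cck in the VTA was lower in males by 0.49 ± 0.13 (SE) with an adjusted p of 0.26, and by 0.35 without library FTL_363 (adjusted p = 0.124).

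The genes that serve the same peptides were taken as fixed lists. Of 19 receptor genes, 17 were tested in the female Amy, where 2 were higher and 1 lower with THC, beside 1.57% of all genes called in either direction. Vipr1, a receptor of VIP and PACAP, was at 9.31 to 15.2 CPM with vehicle and 16.0 to 20.5 with THC (log2 fold change 0.52 ± 0.11 SE, adjusted p = 0.0256). Sort1, the sortilin gene, whose product binds neurotensin, rose by 0.41 ± 0.10 on the log2 scale (SE, adjusted p = 0.0499). Cckar, a cholecystokinin receptor, fell by 0.81 on the log2 scale (SE 0.19, adjusted p = 0.04), from 1.51 to 2.41 CPM with vehicle to 0.832 to 1.61 with THC.

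Of 10 genes of peptide processing and granules, 1 was called in the female Amy, where 1.57% of all genes were. Pcsk2, the prohormone convertase that cuts many precursors, was at 171.7 to 234.9 CPM with vehicle and 266.6 to 359.3 with THC, without overlap (log2 fold change 0.61 ± 0.09 SE, adjusted p = 0.0072). Of 28 other precursor genes, 14 were tested there and 2 were lower with THC, beside the same 1.57% of all genes. Ucn3, the urocortin 3 gene, was at 7.13 to 19.7 CPM with vehicle and 2.44 to 7.93 with THC (-1.45 ± 0.32 SE, adjusted p = 0.0363). Pnoc, the nociceptin precursor, was at 19.4 to 28.7 CPM with vehicle and 15.5 to 19.3 with THC (-0.47 ± 0.10 SE, adjusted p = 0.0283). The median log2 fold change was -0.18 for the receptors, -0.02 for the processing genes and -0.34 for the other precursors. The marker sums given above differed between treatments in these same libraries. Without library FTL_344, Cckar, Pcsk2 and Pnoc were still called (adjusted p = 0.0253, 0.0185 and 0.0482), while Vipr1, Sort1 and Ucn3 kept their directions without a call (adjusted p = 0.052, 0.0941 and 0.0614). Without the 5 libraries high in choroid plexus markers, Vipr1, Cckar and Pcsk2 were still called, Sort1 was at 0.31, under the fold threshold, Pnoc and Ucn3 were not called (adjusted p = 0.0594 and 0.287), and Cckbr and Vip were newly called (0.47 and 0.74 higher with THC). None of 3 genes of peptide binding and breakdown was called. In the other 9 comparisons of THC with vehicle no gene of the 4 lists was called by edgeR, with 0 to 5 receptors, 0 to 4 other precursors, 0 to 2 processing genes and at most 1 gene of binding and breakdown at an unadjusted p under 0.05 in a comparison.

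The genes whose pattern was most like that of each member were found by Pearson's r over the 20 group means of log2 CPM, among 11487 genes. For Cck these were Neurod6 (r = 0.991), a transcription factor of cortical projection neurons, and Pls3 (r = 0.99). For Tac1 they were Dhx40 and Clip4 (both r = 0.99), for Tac2 Unc5d and Galnt16 (both r = 0.98), and for Crh Tmem215 and Vstm2a (both r = 0.97). For Adcyap1 Nsdhl (r = 0.995), a gene of cholesterol synthesis, was among them. Nts was nearest to Fbxo10 and Zcchc3 (both r = 0.98), Gal to Ptpdc1 (r = 0.98) and Timp2 (r = 0.97), Grp to Mapkapk2, among others (r = 0.99), and Trh to Zfp821 and Prmt5 (both r = 0.96). Cartpt had the weakest match, with Zbtb7c (r = 0.954) and Meg3 (r = 0.925). The 20 points come from 5 regions, and genes that differ between regions share this structure. Pearson's r also does not compare the size of the differences. Region means of Nsdhl ran from 13.3 CPM in the DMS to 26.4 in the VTA, those of Adcyap1 from 0.252 to 73.1.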

How the data were processed

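The authors selected polyadenylated RNA, trimmed reads with cutadapt 2.9, aligned them to mm10 with STAR 2.7.3a and counted them with RSEM 1.3.1. The deposited values are the expected counts of RSEM per gene, not normalized, in 2 tables, 1 for PFC and DMS and 1 for NAc, Amy and VTA. Expected counts were rounded to whole numbers. TMM CPM was computed over all 119 libraries, and its log2 was taken with prior count 2. Tests used edgeR 4.0.16 (filterByExpr, TMM, robust quasi-likelihood F test, Benjamini-Hochberg adjustment over all genes tested), and DESeq2 1.42.0 in R 4.3.3 was an alternative. A gene to which DESeq2 gave no adjusted p counted as not called. SE was the absolute log2 fold change over the root of F. Groups came from the labels. Regions of 1 mouse could not be linked, so p-values between regions treat libraries as independent. Full statistics are given for members called or with an unadjusted p under 0.05, and the 2 genes of most similar pattern are named per member, except 2 genes that are not reported here. The members and lists were chosen with earlier results of these data known. The fits were tested on simulated data. Positions are from GENCODE M21 on GRCm38, the assembly of mm10.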

Additional observations from a re-analysis of the deposited data

Results flagged for a closer look

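In 179 groups of 5 or 6 values with enough counts, 1 library stood apart from the others of its group in 30, by Dixon's limit. For independent values with a normal distribution this limit flags about 1 in 20, or 8.9 of 179. The values here were CPM not on a log scale, and the same library enters many groups. The 30 groups therefore do not measure an excess over chance. The library that stood apart was the highest of its group in 26 cases and the lowest in 4, and 16 libraries were involved. A further 21 groups with under 10 counts in every library were not examined.

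The vehicle-treated female DMS library FTL_285 stood apart in 5 members, with Adcyap1 at 3.092 CPM, Tac2 at 0.4947, Cck at 36.89, Grp at 0.6183 and Tac1, the lowest of its group, at 142.6. Its cortical and basolateral projection neuron markers summed to 263.6 CPM. The vehicle-treated male DMS library FTL_301 stood apart in Tac2 at 3.513 CPM, Nts at 13.95 and Tac1, again the lowest, at 150.9. In the DMS with THC, Nts was at 6.47 CPM in female library FTL_292 and Tac2 at 1.254 in male library FTL_304.

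In the VTA, library FTL_363 stood apart in Cartpt at 1091 CPM and Cck at 93.34. Library FTL_368 did so in Tac2 at 20.53 CPM, Nts at 16.66, Gal at 4.323 and Crh at 3.242. Library FTL_371 did so in Adcyap1 at 159.6 CPM, Cartpt at 34.31, Tac2 at 15.22 and Gal at 5.669. Tac2 was at 27.27 CPM in library FTL_358 and 7.852 in library FTL_376, where Crh was the lowest of its group at 0.4946.

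In the Amy, Tac1 was at 69.31 CPM in vehicle-treated female library FTL_338 and Trh at 21.73 in library FTL_356, labelled male THC. In the NAc, Adcyap1 was at 1.924 CPM in THC-treated female library FTL_320 and Trh at 10.16 in vehicle-treated male library FTL_323. In the PFC, Tac1 was at 16.15 CPM in vehicle-treated male library FTL_273, Grp at 13.72 in THC-treated female library FTL_271 and Trh, the lowest of its group, at 1.797 in vehicle-treated female library FTL_263.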

How the results depend on the processing

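Of the alternative values of 50 results, 15 no longer passed the thresholds, 3 newly passed, 14 moved and 0 reversed, and the others kept their direction and side of the thresholds or stayed within 1.5 times the main count. Members called in the female Amy, 2 as reported, numbered 1 with no filter, 0 with all 4 groups in 1 fit, 1 without library FTL_344 and, chosen after seeing the data, 4 without the 5 libraries high in choroid plexus markers. Of all genes, 116 were called higher and 43 lower among 16979 without library FTL_344. Without the 5 libraries, 223 were higher and 129 lower among 18041. The members called in the female Amy numbered 1 to 2 with 1 library left out at a time. DESeq2 called 3 members in the female Amy, and by sex 4 members in the DMS, 1 in the NAc and 1 in the VTA. Its calls over all genes were not counted. Without libraries FTL_285 and FTL_301, an alternative added later, 1 member was called by sex in the DMS. Single genes between regions are not among these 50 results. Of them, Trh in Amy against NAc lost its call with no filter (adjusted p = 0.0716). With THC in place of vehicle libraries, Cartpt in DMS against PFC (adjusted p = 0.657) and in VTA against NAc (0.872) and Cck in NAc against DMS (0.391) lost theirs, Cartpt in VTA against Amy turned, and Tac2 and Gal in VTA against NAc and Trh and Grp in NAc against DMS gained one. Adcyap1 and Grp in NAc against DMS were called without FTL_285. Without the male vehicle VTA library FTL_370 or FTL_372, Tac2 in VTA against PFC (adjusted p = 0.0413 and 0.038) and Gal in VTA against NAc (adjusted p = 0.0443 and 0.035) were called. No paired analysis was possible because the labels tie no library to a mouse and groups share no library number. Depth limits Adcyap1 and Grp in the DMS and NAc, Tac2, Crh and Gal in the DMS, and Gal and Nts in the PFC, all with medians under 10 counts.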
